A study of Mus musculus with 15 samples.

Results

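Cytoplasmic ribosomal protein genes encode the proteins that, with ribosomal RNA, build the large and the small subunit of the ribosome. They were taken here by symbol: protein-coding genes whose mouse symbol starts with Rpl or Rps and a digit, plus Rplp0, Rplp1, Rplp2 and Rpsa, leaving out symbols with -ps and the Rps6k kinases. This gave 86 members of 49585 genes in the count table, of which 43 encode large subunit proteins, 31 small subunit proteins and 3 the P-stalk of the large subunit. A further 8 are variants, genes that encode a close relative of a standard ribosomal protein: Rpl3l, Rpl7l1, Rpl10l, Rpl22l1, Rpl36al, Rpl39l, Rps27l and Rps27rt. The symbol rule also took Rps19bp1, which encodes a binding partner of Rps19 and no ribosomal protein. Fau, which makes a ribosomal protein fused to a ubiquitin-like protein, falls outside the rule.

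The study sequenced poly(A) RNA from wild-type mouse E14 embryonic stem cells, an established line, in 5 culture groups of 3 libraries each. All cells were kept before the experiment in 0.4 µM PD0325901, a MEK inhibitor, 3 µM CHIR99021, a GSK3 inhibitor, and 4 ng/ml Lif, and were then embedded at 2000 cells per µl in growth factor reduced Matrigel in N2B27 medium. The groups differed in what was added there. The group 2iLif kept both inhibitors and Lif, FGF2/Activin received those 2 growth factors, PD032 and Aurka inh received the agents of those names, and PD032+ Aurka inh received both. The labels do not spell out PD032, name no Aurora kinase compound, and give no dose or time of these agents, and there was no group in N2B27 alone. They do not say whether the 3 libraries of a group came from separate cultures. The p-values thus measure the spread between libraries, which may be technical, and which the fits on all 15 libraries pool over the 5 groups.

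Ribosomal protein mRNAs are among the most abundant mRNAs of growing cells. Many begin with a stretch of pyrimidines at the cap, the 5′ terminal oligopyrimidine (TOP) tract, through which mTOR signalling and the protein Larp1 control their translation and their stability. The proteins are made in near equal numbers and surplus protein is degraded, and pluripotent cells, which divide rapidly, are known for high ribosome production.

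The first bases of a TOP mRNA lie around the transcription start. Such windows are shown for some of the members on which the results below turn, without Rps20, Rps2 and Rps29. They hold 15 bases on each side of the start that RefSeq gives. They are from build GRCm38.p6, on the strand of the gene, and capitals mark the longest run of C and T where it holds 6 or more letters.
Rps12, chr10:23787195-23787224, minus strand: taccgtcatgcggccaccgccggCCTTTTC
Rpl13a, chr7:45128731-45128760, minus strand: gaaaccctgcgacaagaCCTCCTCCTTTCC
Rpl12, chr2:32961697-32961726, plus strand: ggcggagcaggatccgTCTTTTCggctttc
Rps10, chr17:27635230-27635259, minus strand: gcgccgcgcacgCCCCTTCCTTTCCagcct
Rpl27a, chr7:109519180-109519209, plus strand: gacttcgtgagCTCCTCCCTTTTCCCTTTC
Rplp0, chr5:115559452-115559481, plus strand: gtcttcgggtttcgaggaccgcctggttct
Rpl22l1, chr3:28805493-28805522, plus strand: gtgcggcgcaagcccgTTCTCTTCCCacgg
Rpl39l, chr16:10170213-10170242, plus strand: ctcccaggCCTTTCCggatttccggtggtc
Rpl10l, chr12:66284387-66284416, minus strand: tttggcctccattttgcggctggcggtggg
The 5 core genes Rps12, Rpl13a, Rpl12, Rps10 and Rpl27a and the variants Rpl22l1 and Rpl39l carried a marked run within the window. In Rps12, Rpl13a and Rpl27a the run lay at the downstream end of the window. The windows of Rplp0 and Rpl10l held none of that length.

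RefSeq promoter entries were matched for 66 of the 86 members by symbol. A run of 8 or more C or T within 25 bases of the start, read on the gene strand, occurred in 33 of the 66, against 22.3% of 27025 genes with an entry. On the opposite strand the same search found 7.58% of members and 24.4% of all genes. The letters CTTTC, which can lie inside such a run, were found in the same window on the gene strand of 30.3% of members and 7.87% of all genes, and on the opposite strand of 10.6% and 7.07%. The letters CGGAAG, the core bound by ETS-family factors such as GABP, occurred on either strand of the 300-base entries of 66.7% of members and 18.8% of all genes. Of 14 genes for translation factors and other TOP mRNAs with an entry, 57.1% held the run, and of 24 ribosome biogenesis genes 12.5%. A match of letters is a description of these windows and not of a bound site.

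Totals lay between 15199507 and 24202544 counts per library. Fits were made on all 15 libraries with the quasi-likelihood test of edgeR, with TMM scaling, which sets the libraries' totals on a common scale, and the threshold for a call was 0.05 on p-values adjusted by Benjamini-Hochberg over the 15223 genes tested. All 86 members passed the filter on low counts. Levels are in CPM, a gene's counts relative to the scaled total of its library. For each gene these fits pool the spread over all 5 groups, also where only 2 groups are compared. The members' median SD of log2 CPM was 0.0468 in 2iLif, 0.0289 in FGF2/Activin, 0.154 in PD032, 0.175 in Aurka inh and 0.136 in PD032+ Aurka inh. The naming style of the file descriptions is shared by 2iLif and FGF2/Activin and differs in the 3 inhibitor groups, so a batch cannot be told apart from the group where an inhibitor group is set against 2iLif. All 9 embryonic stem cell markers, Pou5f1 and Sox2 among them, had counts in each group, with a summed level between 2770 and 4980 CPM. The 6 markers each of primitive endoderm, trophoblast and fibroblast summed to at most 6.69, 21 and 20.6 CPM, and Postn, a fibroblast gene, was at 0 in every library.

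Members took about 5% of all gene counts. In 2iLif the share was 4.93%, 5.06% and 5.22% in libraries 1, 2 and 3 (5.07% ± 0.147, SD, n = 3). In FGF2/Activin it was 4.53%, 4.42% and 4.47% (4.47% ± 0.0535), and each of these values lay below each 2iLif value. In PD032 it was 4.43%, 5.26% and 4.65% (4.78% ± 0.427), in Aurka inh 5.06%, 6.20% and 5.73% (5.66% ± 0.573), and in PD032+ Aurka inh 4.94%, 5.83% and 5.28% (5.35% ± 0.446). The 3 inhibitor groups overlapped one another and 2iLif. In each inhibitor group library 2 was highest and library 1 lowest, and comparing libraries of equal number gave the same order in each of the 3 numbers, PD032 below PD032+ Aurka inh below Aurka inh. The 95% Wilson interval of a single share reached at most 0.0118 percentage points to each side, which covers counting error only and is far narrower than the spread between libraries. In a bulk sample, fewer cells of a type and less RNA per cell cannot be told apart.

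**Figure D1:**
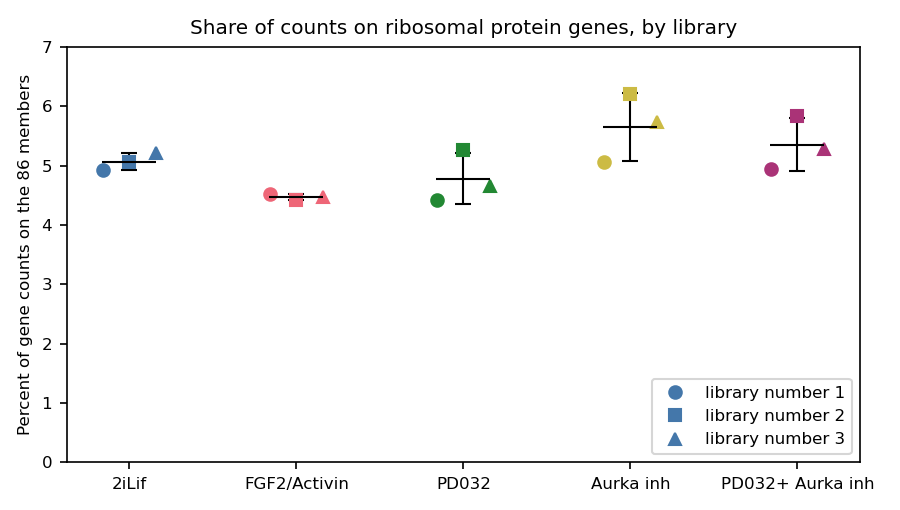
Percent of all gene counts on the 86 ribosomal protein members (vertical axis, from 0) in each of the 5 culture groups. Circles, squares and triangles are libraries 1, 2 and 3, and the bar and whiskers are the mean and SD of 3. The FGF2/Activin libraries sit between 4.42% and 4.53%, below all 2iLif libraries, and library 2 is highest in each inhibitor group.

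By group mean CPM, 67 of the 86 members had their highest level in Aurka inh and 10 in 2iLif. The lowest level was in FGF2/Activin for 52 members and in PD032 for 28. The heat map of members by library shows both patterns: blue across FGF2/Activin for most rows, and red in library 2 of Aurka inh. Like counts over all genes are not given, and the ranking of groups crosses naming styles. Without Aurka inh library 2, the members' median log2 fold change in PD032+ Aurka inh against Aurka inh was 0.02, with 52 members above 0.

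**Figure D2:**
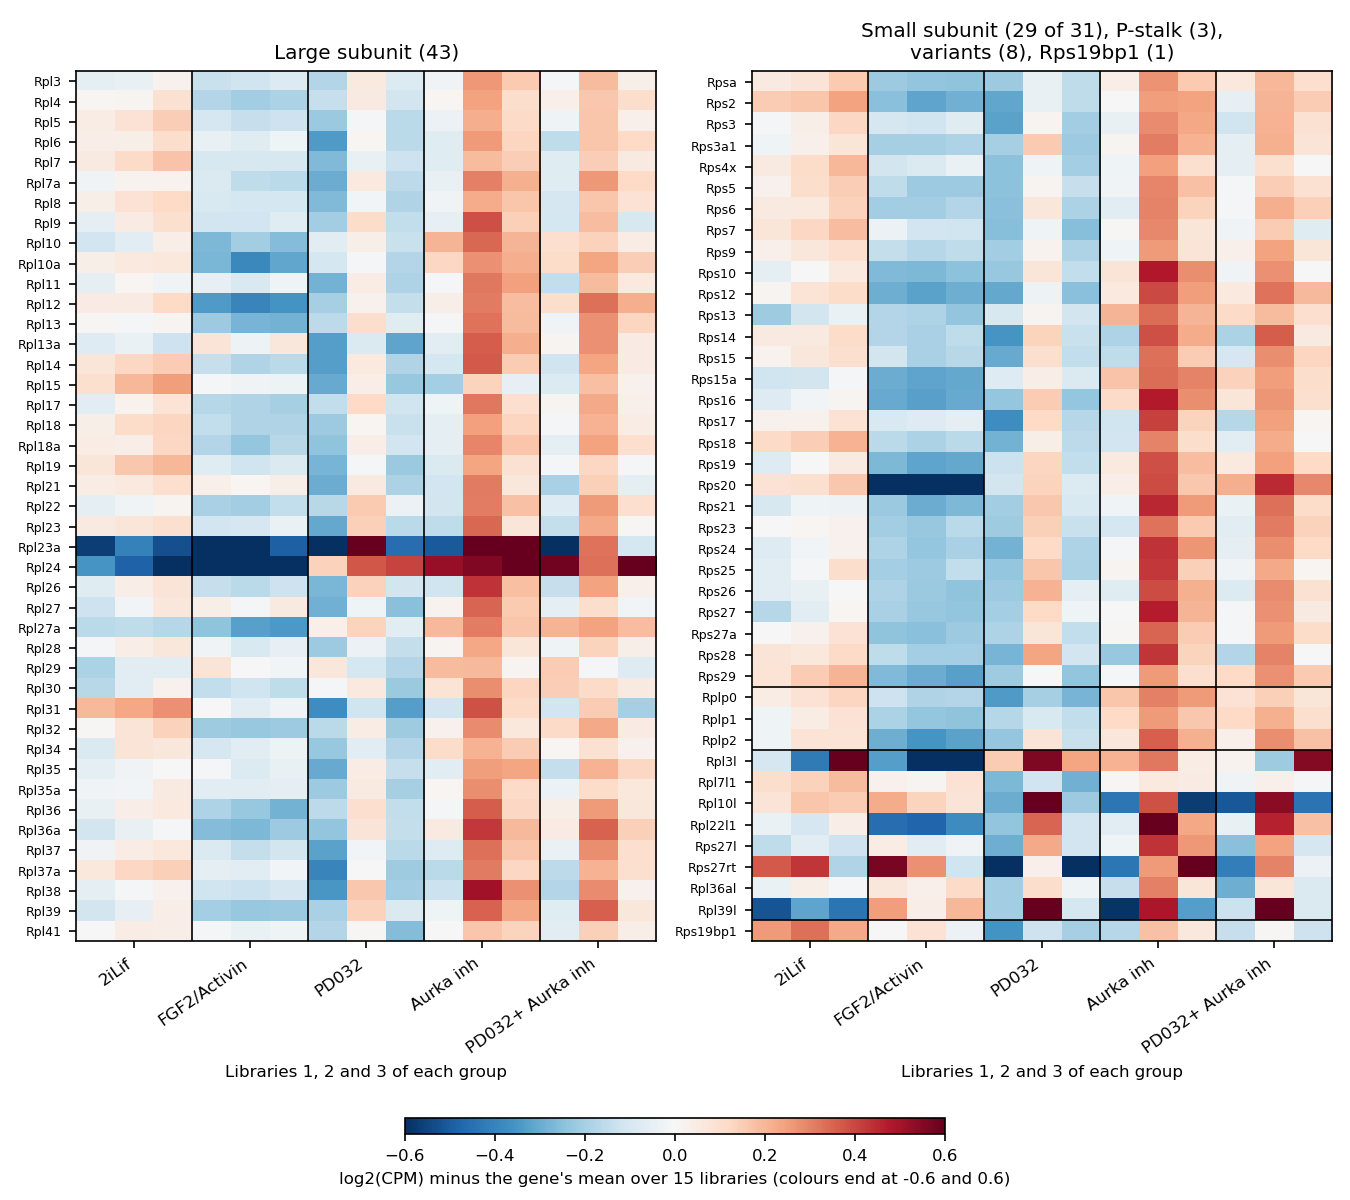
Each row is 1 of 84 members and each column a library, in the order 1, 2, 3 within a group. Colour is log2 CPM minus that gene's mean over the 15 libraries, from -0.6 (blue) to 0.6 (red). Most rows are blue in FGF2/Activin and red in library 2 of Aurka inh, and the rows of Rpl23a, Rpl24, Rps20 and several variants depart from this.

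Between genes, levels were compared per kilobase of coding sequence. The 77 core members had a median of 1190 CPM per kb, with quartiles of 784 and 1570. By this measure Rpl41, which encodes the smallest ribosomal protein, led with 7190, followed by Rplp1 of the P-stalk with 4770, Rps12 with 3290 and Rps29 with 2720. Counts cover whole transcripts, so dividing by coding length raises genes whose transcript lies mostly outside the coding part. Rpl41 has 75 coding bases in a transcript of 582 and a mean of 539 CPM, where Rplp1 has 342 in 499 and 1630 CPM. The 8 variants had a median of 158 CPM per kb, and Rpl3l, known as a muscle gene, was lowest with 0.779. Rpl24, Rpl23a, Rpl29 and Rpl13a, core proteins of the large subunit, were the lowest core members with 3.26, 23.4, 128 and 215 CPM per kb, followed by Rps3a1 with 300.

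Ribosomal protein genes have many processed pseudogenes, copies of the mRNA inserted elsewhere in the genome. Of the 86 members, 78 had at least 1 other gene in the table with a transcript at least 95% identical over at least 80% of the coding sequence, with a median of 4 and, for Rpl21, 49 such copies. For 70 members the copies together held no more than 0.05 times the member's own counts. For 3 members they held at least 0.5 times: Rps27rt, whose coding sequence is identical to that of Rps27, Rpl24 with 452 counts against 716 on its copies, and Rps3a1 with 66013 against 81959. Rplp0 had 276266 counts and its copies 92156, and Rps13 had 128989 and its copies 46741. Rpl23a had 2977 counts and its copies 372. How reads that fit several copies were counted is not given in the sources used here. Levels of these members, among them the low ones of Rpl24 and Rpl23a, are thus uncertain.

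FGF2/Activin against 2iLif compares growth factor culture with the medium that holds cells in the naive state. Of the 86 members, 37 were lower and 0 higher, where 32.6% of all genes tested were lower and 33.3% higher. The median log2 fold change was -0.20, against -0.01 for all genes tested. The calls covered both subunits and the stalk, with 16 of 43 large subunit genes, 16 of 31 small subunit genes and the 3 stalk genes lower. A fit on the 6 libraries of these 2 groups alone called 67 lower and 4 higher (39.1% and 38.6% of its genes), and the libraries of the 2 groups did not overlap for 68 lower and 3 higher members (37.9% and 37.8% of all genes).

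Among those that passed, the largest fall was that of Rps20, a protein of the small subunit head, on chromosome 4 (3831334 to 3835665, minus strand, GRCm38). Its level was 769, 775 and 812 CPM in 2iLif and 478, 472 and 472 CPM in FGF2/Activin. The groups lay far apart relative to their spread, with a log2 fold change of -0.73 (SE 0.0833, adjusted p = 9.62e-07). Rps2, which lines the mRNA entry side of the small subunit, had 1120, 1130 and 1190 CPM in 2iLif and 847, 810 and 826 CPM in FGF2/Activin, a log2 fold change of -0.47 (SE 0.0788). Rps29, a zinc-binding protein of the small subunit, went from 478, 502 and 521 CPM to 376, 367 and 361 CPM, and Rpl12, which sits at the base of the stalk, from 1210, 1210 and 1270 CPM to 924, 890 and 912 CPM. Their log2 fold changes were -0.44 each. None of these 4 genes had overlapping groups.

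Of the stalk genes, Rplp2 fell by 0.37, Rplp1 by 0.26 and Rplp0 by 0.25 on the log2 scale. Rpsa, the laminin receptor protein of the small subunit, fell by 0.32, and Rpl10a by 0.38. Rps6, the substrate of S6 kinase, had 508, 510 and 539 CPM in 2iLif and 424, 423 and 434 CPM in FGF2/Activin, a log2 fold change of -0.28 (adjusted p = 0.0109). Rpl5 and Rpl11 form the complex that binds Mdm2 when ribosome assembly is disturbed. Rpl5 fell by 0.22 (adjusted p = 0.0113), while Rpl11 had 510, 533 and 522 CPM in 2iLif and 511, 497 and 519 CPM in FGF2/Activin (adjusted p = 0.758). Whether the 2 genes differed from each other was not tested.

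A few members had higher values in FGF2/Activin and did not pass in the fit on all 15 libraries, whose spread takes in the inhibitor groups. Rpl39l, the variant of the exit tunnel protein Rpl39 known from testis, had 9.94, 11.4 and 10.5 CPM in 2iLif and 16.9, 14.6 and 16.3 CPM in FGF2/Activin. The groups did not overlap, and the log2 fold change was 0.58 (SE 0.333, adjusted p = 0.136 over all 15 libraries and 3.57e-06 over the 6 libraries alone). Rpl13a, which also serves in the GAIT complex of translational silencing, had 123, 126 and 119 CPM and 137, 127 and 136 CPM (adjusted p = 0.305 and 0.00635). Rpl29 was the other member with higher and separate groups, at 53.9, 58.8 and 58.8 CPM against 64.8, 61.4 and 60.7 CPM. The fourth higher call of the smaller fit was the p53-induced variant Rps27l.

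Members are short, with a median transcript of 790 bases, and 174 other protein-coding genes with transcripts under 1000 bases and a mean of at least 50 CPM had a median log2 fold change of -0.08 in the same comparison. With the trend of transcript length removed from each library, an alternative chosen after seeing the data, 45 members were lower (30.2% of all genes) and 5 higher (38.1%), with a median of -0.13. The embryonic stem cell markers summed to 4750 to 4980 CPM in 2iLif and 2940 to 3000 CPM in FGF2/Activin. Of the 9, 6 were called lower and 2 higher (4962 and 5063 of all 15223 genes). By group mean, Esrrb went from 863 to 30.3 CPM and Nanog from 530 to 40.4, while Utf1 went from 154 to 576 and Lin28a from 496 to 711. The fibroblast markers summed to 2.47 to 3.04 CPM in 2iLif and 19 to 20.6 CPM in FGF2/Activin. The part of either list in the members' levels was not tested.

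**Figure D3:**
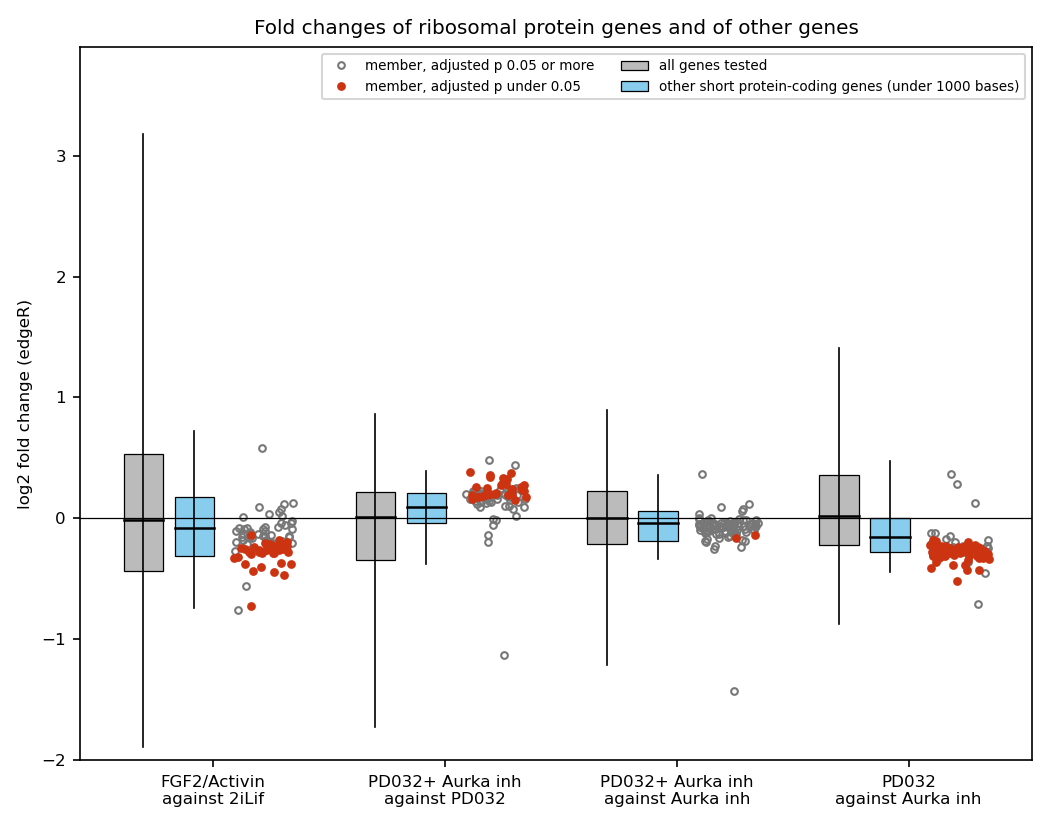
log2 fold change (vertical axis) in the 4 comparisons between groups of one naming style. Points are the 86 members, filled where the adjusted p was under 0.05. Boxes span the quartiles with the median as a line, and lines run from the 5th to the 95th percentile, for all genes tested (grey) and for other protein-coding genes with transcripts under 1000 bases (blue). Members lie below 0 in FGF2/Activin and in PD032, above 0 in PD032+ Aurka inh against PD032, and close together compared with other genes.

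The 3 inhibitor groups had a shared feature that bears on each comparison among them. Library 2 was the highest of its group for 84 of 86 members in PD032, 84 in Aurka inh and 81 in PD032+ Aurka inh. The median member lay 0.17, 0.16 and 0.14 above its group mean there, on the log2 scale. The 174 other short coding genes moved by 0.17, 0.16 and 0.14 in the same libraries, and coding genes of 4000 bases and more by -0.07, -0.07 and -0.08. Library 2 was also the shallowest of each of these groups. What set library 2 apart was not tested. Members differed in how far they followed. Averaged over the 3 groups, library 2 lay above the group mean by 0.06 for Rplp0, 0.07 for Rplp1 and 0.05 for Rpl7l1, and by 0.63 for Rpl10l and 0.64 for Rpl39l. Rpl23a was the extreme, with 4.48, 39.1 and 5.74 CPM in PD032 and 5.55, 39.5 and 15.7 CPM in Aurka inh. In 2iLif and FGF2/Activin it had 4.53 to 5.95 CPM. The libraries with equal numbers thus varied together in the inhibitor groups, and counts of members with the library number as a block are given beside those without it.

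**Figure D4:**
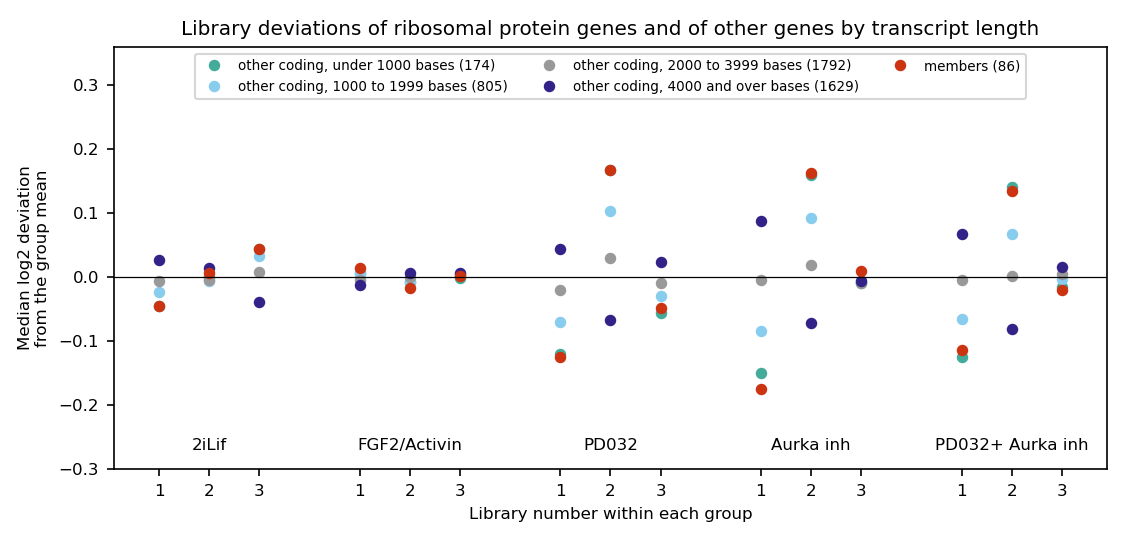
Median log2 deviation of a set of genes from its group mean (vertical axis) in each library, for the members and for other protein-coding genes in 4 classes of transcript length. Members and other genes under 1000 bases rise together in library 2 of the 3 inhibitor groups, where the class of 4000 bases and over falls, and deviations stay under 0.05 in 2iLif and FGF2/Activin.

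PD032+ Aurka inh against PD032 shows what was measured when the Aurka inhibitor was added to PD032. Of the 86 members, 31 were higher and 0 lower, where 20.0% of all genes tested were higher and 23.8% lower, and the median log2 fold change was 0.19, against 0.01 for all genes. With the block, 74 were higher and 2 lower (28.0% and 29.6% of all genes). The level was higher in PD032+ Aurka inh in all 3 pairs of equal number for 79 members (37.2% of all genes) and lower in all 3 for 2 (35.9%). The higher members were 17 of 43 large subunit genes, 10 of 31 small subunit genes and the 3 stalk genes without the block, and 39, 29 and 3 with it.

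Rplp0, which anchors the stalk that calls elongation factors to the ribosome, had 781, 861 and 814 CPM in PD032 and 1050, 1090 and 1040 CPM in PD032+ Aurka inh. The groups did not overlap, and the log2 fold change was 0.37 (SE 0.0477, adjusted p = 1.02e-05). Rps12, a small subunit protein, had 1040, 1260 and 1080 CPM and 1340, 1610 and 1470 CPM (log2 fold change 0.39, SE 0.0828, adjusted p = 0.00128). Its libraries 2 were highest in both groups, and the groups did not overlap. Rpl13a rose from 103, 122 and 104 CPM to 131, 157 and 134 CPM, a log2 fold change of 0.36. Rps20, with 672, 794 and 685 CPM against 844, 990 and 886 CPM, and Rps29, with 390, 451 and 384 CPM against 490, 546 and 503 CPM, followed with 0.34 and 0.33. Rplp1, Rpsa, Rpl10a and Rpl12 rose by 0.28, 0.25, 0.26 and 0.32 on the log2 scale.

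Several members stood aside. The variants Rpl10l and Rpl36al were lower in all 3 pairs, Rpl10l at 25.8, 51.9 and 27.3 CPM against 22.3, 46.2 and 23.3 CPM. With the block, Rpl10l was called lower (log2 fold change -0.20, adjusted p = 0.0073), as was Rpl23a, whose difference rests on library 2. Rps14, Rps3, Rps27a, Rps19 and Rps25 had log2 fold changes of 0.15 to 0.23 that passed with the block and not without it.

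The count depended on the libraries. It was 62 without PD032 library 2 and 47 without PD032+ Aurka inh library 1, but 14 without PD032 library 1, 14 without PD032 library 3 and 15 without PD032+ Aurka inh library 2, where the median was 0.13. Of all genes, 3250 of 15431, 3001 of 15331, 2465 of 15312, 2401 of 15319 and 2800 of 15333 were higher in the same fits. Leaving out library 2 of all 3 inhibitor groups gave 67 higher and 1 lower (24.6% and 26.1% of all genes), with a median of 0.21. A fit on the 9 inhibitor libraries without a block gave 15 higher and 0 lower (15.5% and 21%). With the length trend removed, 46 were higher and 1 lower (19.3% and 27.4% of all genes), with a median of 0.12, and the 174 other short coding genes had a median of 0.09 before that step. Both alternatives were chosen after seeing the data. Between the inhibitor groups the embryonic stem cell markers summed to 2770 to 3110 CPM in PD032, 2780 to 3300 CPM in Aurka inh and 3650 to 3990 CPM in PD032+ Aurka inh. Single markers moved apart, with group means in that order of 121, 119 and 385 CPM for Nanog and 726, 654 and 413 CPM for Lin28a. The fibroblast markers summed to 9.72 to 12.4, 12.5 to 19.6 and 4.13 to 6.45 CPM. The part of these markers in the 3 comparisons was not tested.

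PD032 against Aurka inh sets the single agents side by side, and it had the most calls of the 3 inhibitor comparisons. Of the 86 members, 57 were lower in PD032 and 0 higher, where 19.7% of all genes were lower and 25.8% higher, and the median log2 fold change was -0.26, against 0.02 for all genes. With the block, 81 were lower and 2 higher (27.2% and 31.1% of all genes). The level was lower in PD032 in all 3 pairs for 83 members and higher for 2 (33.4% and 39.1% of all genes). Without the block the lower members were 31 of 43 large subunit genes, 21 of 31 small subunit genes and the 3 stalk genes.

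Rplp0 had the largest fall of those that passed, with 1110, 1220 and 1180 CPM in Aurka inh against 781, 861 and 814 CPM in PD032, a log2 fold change of -0.51 (SE 0.0478, adjusted p = 2.84e-07). Its groups did not overlap. Rps12, with 1340, 1690 and 1530 CPM in Aurka inh against 1040, 1260 and 1080 CPM, fell by 0.43, and Rpl13a, with 124, 167 and 151 CPM against 103, 122 and 104 CPM, fell by 0.43 as well. Rpl31, a protein at the exit of the nascent chain, had 292, 412 and 342 CPM in Aurka inh and 244, 291 and 251 CPM in PD032 (log2 fold change -0.41, adjusted p = 0.00481). Its groups were separated by a narrow gap. Rps10 of the small subunit had 321, 425 and 370 CPM and 260, 320 and 275 CPM, a log2 fold change of -0.39. The groups of these 5 genes did not overlap.

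Rpl5, Rpl11, Rps6, Rps3, Rps19, Rps27a and Rps25 had log2 fold changes between -0.33 and -0.23 and passed without the block, with groups that overlapped, library 2 of PD032 lying above library 1 of Aurka inh. Rpl38, known for its part in translating Hox mRNAs, had 149, 231 and 197 CPM in Aurka inh and 128, 182 and 141 CPM in PD032 and passed only with the block (adjusted p = 0.0504 without it and 8.29e-07 with it). Rpl10l and Rpl39l went the other way, higher in PD032 in all 3 pairs, and were the 2 higher calls with the block.

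Leaving out a library moved the count of lower members to 28 without PD032 library 1, 29 without Aurka inh library 2, where the median was -0.17, and 33 without PD032 library 3. In those fits 2424 of 15312, 2735 of 15580 and 2418 of 15319 genes were lower. The count was 41 without Aurka inh library 3, 76 without Aurka inh library 1 and 78 without PD032 library 2. Of all genes, 2551 of 15328, 2962 of 15337 and 3150 of 15431 were lower there. A fit on the 9 inhibitor libraries without a block gave 37, with 0 higher (16.7% and 21.8% of all genes). Without library 2 of the 3 groups it was 77, with 2 higher (22.7% and 28.2%). With the length trend removed it was 57, with 0 higher (21.6% and 27%), with a median of -0.14, and the 174 other short coding genes had a median of -0.16 before that step.

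PD032+ Aurka inh against Aurka inh shows what was measured when PD032 was added to the Aurka inhibitor. Of the 86 members, 2 were lower and 0 higher, where 16.3% of all genes were lower and 18.6% higher, and the median log2 fold change was -0.06. The 2 lower members were Rpl10, a protein that joins the large subunit late and completes it, with 537, 591 and 537 CPM in Aurka inh and 499, 512 and 480 CPM in PD032+ Aurka inh (log2 fold change -0.16, adjusted p = 0.0373), and Rplp0, with 1110, 1220 and 1180 CPM against 1050, 1090 and 1040 CPM (log2 fold change -0.14, adjusted p = 0.0293). Neither gene had overlapping groups. With the block, 41 were lower and 2 higher (24.5% and 23.9% of all genes), and members were lower in all 3 pairs in 47 cases and higher in 5 (31.9% and 35.3% of all genes). The 2 higher calls were Rpl39l and Rps20. Rps27l had 202, 278 and 246 CPM in Aurka inh and 173, 243 and 192 CPM in PD032+ Aurka inh, and passed only with the block (adjusted p = 0.155 without it and 5.94e-06 with it).

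The count of lower members was 0 without Aurka inh library 2, without PD032+ Aurka inh library 1 or without its library 3, 1 without Aurka inh library 3, 5 without PD032+ Aurka inh library 2 and 8 without Aurka inh library 1. Of all genes, 2599 of 15580, 2271 of 15331, 2048 of 15339, 1794 of 15328, 2251 of 15333 and 2256 of 15337 were lower in these fits. The count of lower members was 0, with 0 higher, in the fit on the 9 inhibitor libraries without a block (13.1% and 14.1% of all genes). With the length trend removed 6 were lower and 0 higher (21.2% and 17.8%), and with the block as well 20 and 3 (27% and 21.8%). Without library 2 of the 3 groups 8 were lower and 2 higher (19.4% and 22%). Without Aurka inh library 2, 1 member was higher. The median log2 fold change changed sign without that library, to 0.02, and was -0.03 without PD032+ Aurka inh library 1, -0.13 without its library 2 and -0.14 without Aurka inh library 1. It was -0.02 with the length trend removed.

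Members also varied among themselves. Over the 79 members with a mean of at least 50 CPM, the SD of the log2 fold change was 0.07 in PD032+ Aurka inh against PD032 and 0.07 in PD032 against Aurka inh. The median standard error of a single gene was 0.09 in both without the block, above that SD, and 0.03 in both with the block, below it. In FGF2/Activin against 2iLif the SD was 0.14 and the median standard error again 0.09. That comparison shares no library with PD032+ Aurka inh against PD032, and over the 79 members the 2 sets of fold changes had a Pearson r of -0.55 and a Spearman rho of -0.50, so members with lower values in FGF2/Activin tended to have higher ones in PD032+ Aurka inh. With PD032+ Aurka inh against Aurka inh, which uses the same PD032+ Aurka inh libraries, r was -0.55 and rho -0.43, and with PD032 against Aurka inh r was 0.08 and rho 0.11. Members are not independent points, since they were fitted together and share library effects of length. Rps20, Rps29, Rpl12 and Rps12 stood near the end of both of the first 2 sets. Rpl13a went the other way, with 0.36 in PD032+ Aurka inh against PD032 and 0.12 in FGF2/Activin against 2iLif. Members with and without a run of 8 pyrimidines near the start had like medians, -0.20 and -0.20 in FGF2/Activin against 2iLif, 0.19 and 0.20 in PD032+ Aurka inh against PD032, and -0.27 and -0.27 in PD032 against Aurka inh, with 33 members in each class. Against 2iLif the medians with and without the run were -0.12 and -0.16 in PD032, 0.17 and 0.11 in Aurka inh and 0.09 and 0.03 in PD032+ Aurka inh, and in FGF2/Activin 17 members with the run and 10 without it were lower. These differences were not tested.

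Variants were compared with the core gene they resemble, as a percent of its CPM, which a common shift of members does not move. Rpl39l stood at 5.54%, 6.12% and 5.31% of Rpl39 in 2iLif and at 10.1%, 8.83% and 9.81% in FGF2/Activin, and the groups did not overlap. Their coding sequences are 85% identical. In PD032, Aurka inh and PD032+ Aurka inh, library 2 stood apart, at 12.5%, 8.05% and 10.3%, while libraries 1 and 3 had 4.99% to 7.29%. Rpl10l, known for male germ cells, showed the same split: 10.9%, 6.98% and 9.04% of Rpl10 in library 2 of the 3 groups and 3.99% to 6.43% in libraries 1 and 3. In 2iLif it was 7.71% ± 0.316 (SD, n = 3) and in FGF2/Activin 8.95% ± 0.560.

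Rpl22l1, the relative of Rpl22 that binds RNA outside the ribosome, ran the other way in FGF2/Activin. It stood at 13.5%, 12.7% and 13.6% of Rpl22 in 2iLif and at 11.2%, 11.1% and 11.4% in FGF2/Activin, and it was the 1 variant among the 37 lower members (log2 fold change -0.40, adjusted p = 0.0473). Rpl36al was 22.7% ± 0.689 of Rpl36a in 2iLif, 27.3% ± 0.336 in FGF2/Activin, 22.8% ± 0.856 in PD032, 19.8% ± 0.534 in Aurka inh and 18% ± 0.680 in PD032+ Aurka inh. The FGF2/Activin libraries lay above all others, and those of Aurka inh and PD032+ Aurka inh below all others. Rps27l took 43.7% to 48.6% of Rps27 in 2iLif and 53.5% to 56.6% in FGF2/Activin. Rpl7l1, the relative of Rpl7, stayed between 24.2% and 30.7% over all libraries. Rpl3l and Rps27rt stayed under 2 CPM in every library.

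**Figure D5:**
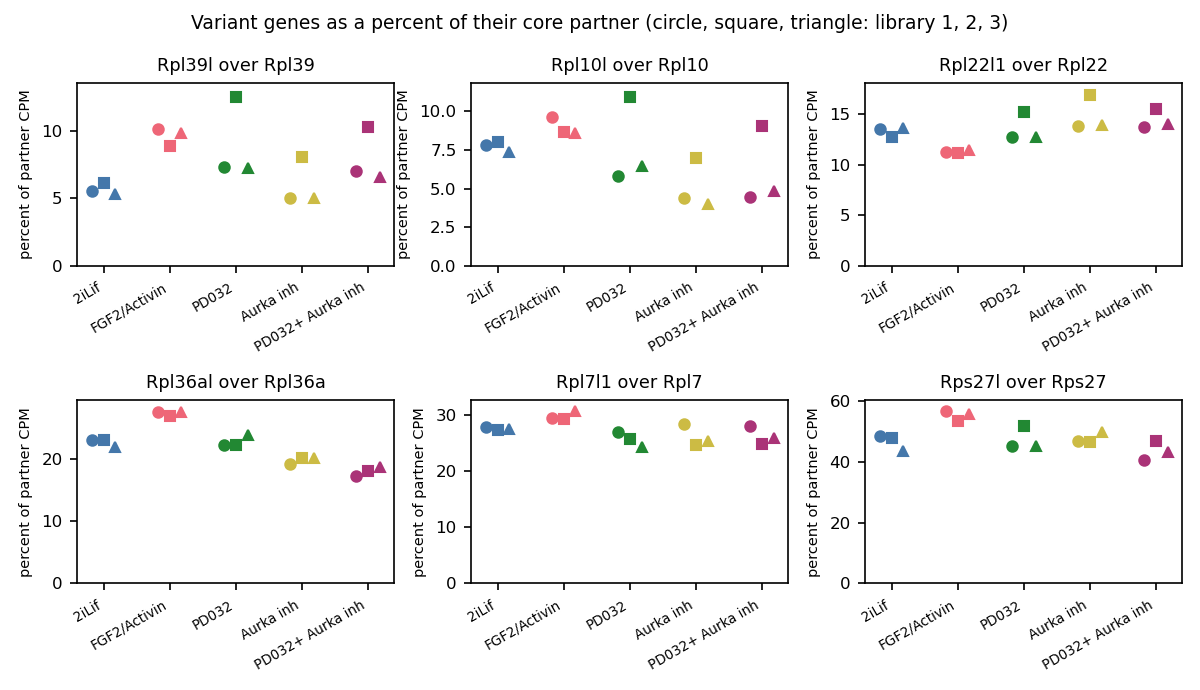
CPM of 6 variant genes as a percent of the core gene each resembles (vertical axes, from 0) in the 5 groups. Circles, squares and triangles are libraries 1, 2 and 3. Rpl39l and Rpl36al are higher and Rpl22l1 lower in FGF2/Activin than in 2iLif, and library 2 of the inhibitor groups stands apart for Rpl39l and Rpl10l.

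Against 2iLif the inhibitor groups are given side by side, since the comparisons share the 2iLif libraries and cross naming styles. In PD032 2 members were higher and 28 lower (32.1% and 30.9% of all genes), with a median of -0.13. In Aurka inh 23 were higher and 1 lower (28.9% and 29.5%), with a median of 0.13, and in PD032+ Aurka inh 7 were higher and 3 lower (23.8% and 23.8%), with a median of 0.06. In these fits the members' shares were near or below those of all genes in each direction, which did not hold under some of the alternatives that follow.

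Single libraries moved these counts and medians. The lower members of PD032 numbered 49 without its library 2, 13 without its library 1 and 16 without its library 3. Of all genes, 4823 of 15431, 4298 of 15312 and 4268 of 15319 were lower there. The higher members of Aurka inh numbered 42 without its library 1, 6 without its library 2, 15 without its library 3 and 8 without 2iLif library 1. Of all genes, 4201 of 15337, 4363 of 15580, 3960 of 15328 and 4092 of 15583 were higher there. The higher members of PD032+ Aurka inh numbered 4 without its library 2 or 3 or without 2iLif library 1 or 2. Of all genes, 3535 of 15333, 3115 of 15339, 3088 of 15583 and 3038 of 15598 were higher there. The median of PD032 was -0.07 without its library 1 and -0.23 without its library 2. That of Aurka inh was 0.21 without its library 1 and 0.03 without its library 2, and that of PD032+ Aurka inh was 0.11 without its library 1, 0.02 without 2iLif library 1, and changed sign, to -0.01, without its library 2. Without library 2 of all 3 inhibitor groups, 65 members (75.6%) were lower in PD032, against 35% of all genes. With the length trend removed the 3 groups had 14, 46 and 36 higher members (36.4%, 34.4% and 27.3% of all genes) and 22, 2 and 3 lower members (28.8%, 27.4% and 24.2%). The higher members were 16.3%, 53.5% and 41.9% of the 86, and the medians -0.03, 0.13 and 0.10.

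Groups did not overlap with 2iLif for 3 higher and 27 lower members in PD032 (34.3% and 33.7% of all genes), 18 and 2 in Aurka inh (30.7% and 32.0%) and 15 and 3 in PD032+ Aurka inh (28.4% and 28.5%). Rpl27a had 356, 358 and 353 CPM in 2iLif, 407, 436 and 381 CPM in PD032, 455, 492 and 446 CPM in Aurka inh and 459, 471 and 453 CPM in PD032+ Aurka inh. It was higher than in 2iLif in each inhibitor group, by 0.20, 0.38 and 0.37 on the log2 scale. Rps13 rose by 0.37 and 0.25 in Aurka inh and PD032+ Aurka inh and Rps15a by 0.35 and 0.25. Rpl24 was called higher in all 3 inhibitor groups from levels of 0.781 to 1.04 CPM in 2iLif and 1.46 to 3.00 CPM in the inhibitor groups. Summed over all 15 libraries, more counts lay on its copies than on Rpl24 itself, and its level is uncertain. Lower were Rps19bp1, by 0.50, 0.25 and 0.36 in PD032, Aurka inh and PD032+ Aurka inh, Rpl31 by 0.50 in PD032 and 0.28 in PD032+ Aurka inh, and Rpl7l1 by 0.37 and 0.14 in the same groups. Rplp0 and Rps2 were lower by 0.36 and 0.35 in PD032.

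The other genes of the pathway were taken from lists of genes known for these roles. Their counts stand against the shares of all genes given above for the same comparisons: 33.3% higher and 32.6% lower in FGF2/Activin against 2iLif, 20.0% and 23.8% in PD032+ Aurka inh against PD032, 25.8% and 19.7% in PD032 against Aurka inh, and 18.6% and 16.3% in PD032+ Aurka inh against Aurka inh. With the block, the shares in the last 3 were 28.0% and 29.6%, 31.1% and 27.2%, and 23.9% and 24.5%. Among 28 ribosome biogenesis genes, 13 were higher and 4 lower in FGF2/Activin against 2iLif. Nop10 and Gar1, subunits of the H/ACA particles that modify ribosomal RNA, rose by 0.79 and 0.53 on the log2 scale, with Nop10 at 95.3, 96.9 and 106 CPM in 2iLif and 173, 169 and 172 CPM in FGF2/Activin. Ubtf, the RNA polymerase I factor, fell by 0.37 and Dkc1, the pseudouridine synthase of those particles, by 0.26. In PD032+ Aurka inh against PD032, 13 were higher and 0 lower, led by Wdr12 and Fbl with 0.39 and 0.29. In PD032 against Aurka inh, 23 were lower and 0 higher, led by Nip7 and Wdr12 with -0.51 and -0.49. In PD032+ Aurka inh against Aurka inh, 12 were lower and 1, Ubtf, higher. With the block, these 3 comparisons had 19 higher and 0 lower, 27 lower and 0 higher, and 22 lower and 1 higher. These genes are longer than the members, with a median transcript of 2970 bases.

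Among 20 genes for translation factors and other TOP mRNAs, 9 were lower and 3 higher in FGF2/Activin against 2iLif. Gas5, a TOP RNA that hosts small nucleolar RNAs, had 207, 189 and 176 CPM in 2iLif and 113, 104 and 111 CPM in FGF2/Activin, and fell by 0.80. Pabpc1, the poly(A)-binding protein, fell by 0.45, and Nap1l1 and Hnrnpa1 rose by 0.34 and 0.28. In PD032+ Aurka inh against PD032, 12 were higher and 0 lower, with Pabpc1 up by 0.40 from 2110, 2250 and 2100 CPM to 2760, 2990 and 2800 CPM and Gas5 by 0.29. In PD032 against Aurka inh, 13 were lower and 0 higher, led by Pabpc1 and the elongation factor subunit Eef1d, both with -0.52. In PD032+ Aurka inh against Aurka inh, 3 were lower and 0 higher, and Eef1d fell by 0.35. With the block, these 3 comparisons had 17 higher and 0 lower, 17 lower and 0 higher, and 12 lower and 2 higher. The groups of Pabpc1 did not overlap in either comparison.

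Of 9 genes for the control of TOP mRNAs by mTOR and Larp1, 2 were higher and 2 lower in FGF2/Activin against 2iLif. Larp1 rose by 0.41, from 704, 709 and 692 CPM to 943, 934 and 929 CPM, and its relative Larp1b by 1.33. Tsc2, a brake on mTOR complex 1, fell by 0.45 and Rptor, a subunit of that complex, by 0.34. In PD032+ Aurka inh against PD032, Larp1b fell by 0.84 and Larp1 rose by 0.16, and in PD032 against Aurka inh Larp1b was higher by 0.65 and the translation inhibitor Eif4ebp2 lower by 0.36. No member of this list passed in PD032+ Aurka inh against Aurka inh in the edgeR test without the block. With it, the 3 inhibitor comparisons in the order above had 3 higher and 2 lower, 4 and 3, and 2 and 1. Fau was lower by 0.19 in PD032 against Aurka inh. Mitochondrial ribosomal proteins, encoded by separate nuclear genes, serve the ribosome of another compartment. Of 77 tested, 18 were higher and 13 lower in FGF2/Activin against 2iLif, 16 and 4 in PD032+ Aurka inh against PD032, 1 and 9 in PD032+ Aurka inh against Aurka inh, and 1 and 36 in PD032 against Aurka inh. With the block the last 3 had 37 and 6, 2 and 24, and 5 and 51. In FGF2/Activin against 2iLif these are smaller shares than those of all genes in both directions.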

How the data were processed

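Poly(A)-selected, directional RNA libraries were made by the submitters, per the labels' protocols, from RNA with a RIN above 7. Per the submitters' processing notes, STAR, DESeq2 and build mm10 were used, and for the counting tool, the annotation and the handling of strand nothing is given in the sources used here. The authors deposited a table of raw counts per gene, used for all results, and a table of log2 values, which for 79 members differed from log2 of the size-factor scaled counts by a median of 0.00874 and served as a check. No column of per-sample values was left unmapped (0).

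Totals were 15199507 to 24202544 counts per library. Counts were fitted with edgeR 4.0.16 (R 4.3.3): filterByExpr, TMM, the quasi-likelihood test on 5 groups and 15 libraries, 7 comparisons, Benjamini-Hochberg adjustment. The test was also run on simulated data with independent libraries and, for each gene, the same spread in all groups. These lack the shared shifts of library numbers and the unequal spreads of the data, and no result rests on them. Copies were found with blastn 2.17.0, and gene positions are from GENCODE for GRCm38. Members and lists were chosen with earlier results of these data known. Named were the variants with their core partners, a set list of 15 members, up to 5 members per direction and comparison with the largest fold changes among those that passed and did not overlap between groups, and up to 2 such genes of each other list that passed. Rpl21, Rpl23a, Rpl29, Rpl41 and Rps3a1 fall outside this, as do some named genes in comparisons other than the one that chose them, and were named after their values were seen. Some single genes are counted but not reported here by name.

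Same-numbered libraries of the inhibitor groups deviated together from their group means over all genes (r 0.17 to 0.483 for each pair), and those of 2iLif and FGF2/Activin did not (-0.026 to 0.00713). Over the members alone the latter correlated as well (0.439 to 0.497). Pairing was decided over all genes, so blocked values are set beside the results for the inhibitor groups and given for the others among the alternatives. This pairing comes from the data, not from a label. Alternatives were other scalings, no filter, fits within a naming style, a block, DESeq2 1.42.0 and each library left out. Removing trends of transcript length and GC and leaving out library 2 of the inhibitor groups were chosen after seeing the data.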

Additional observations from a re-analysis of the deposited data

How the results depend on the processing

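Counts are of members at an adjusted p under 0.05, higher and lower. For some alternatives only part of the comparisons is given. The cause of the changes was not tested. With no filter on low counts, FGF2/Activin against 2iLif had 1 and 59, and PD032+ Aurka inh against PD032 66 and 1. PD032+ Aurka inh against Aurka inh had 1 and 6, and PD032 against Aurka inh 2 and 76. Against 2iLif, PD032 had 4 and 39, Aurka inh 39 and 3, and PD032+ Aurka inh 22 and 3. Of the 29430 genes of that fit, 5496 and 5182, 3041 and 3853, 2889 and 2355, and 4212 and 2868 were called in the first 4 comparisons. Against 2iLif the numbers were 5436 and 4761, 4685 and 4590, and 3919 and 3517. With library size alone, PD032+ Aurka inh against PD032 had 20 and 0 (2443 and 4027 of all 15223 genes). PD032 against 2iLif had 4 and 14 (5498 and 3972), and PD032+ Aurka inh against 2iLif 12 and 2 (3905 and 3310). Within a naming style and without a block, the first 4 comparisons had 4 and 67, 15 and 0, 0 and 0, and 0 and 37. The shares of all genes in these fits are given in the Results. DESeq2 gave 0 and 34, 31 and 0, 0 and 2, and 0 and 63 in the first 4 comparisons. Against 2iLif it gave 1 and 28 in PD032, 23 and 1 in Aurka inh and 4 and 3 in PD032+ Aurka inh. Over all genes, FGF2/Activin against 2iLif had 5323 and 4728 of 20629, and PD032+ Aurka inh against PD032 2930 and 3429 of 19529. PD032+ Aurka inh against Aurka inh had 2478 and 2473 of 17879 genes, and PD032 against Aurka inh 3500 and 3132 of 18979. All genes against 2iLif gave 4789 and 4727 of 21179, 4415 and 4258 of 20079, and 3356 and 3515 of 19529.

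With the replicate block, FGF2/Activin against 2iLif, where equal numbers deviated together over the members but not over all genes, had 4 and 66 (38.3% and 38.9% of all genes). PD032+ Aurka inh against PD032 had 74 and 2, PD032+ Aurka inh against Aurka inh 2 and 41, and PD032 against Aurka inh 2 and 81. A block over 15 libraries gave 4 and 37 in PD032, 33 and 2 in Aurka inh and 15 and 3 in PD032+ Aurka inh against 2iLif. Of the 15223 genes, 5088 and 5023, 4666 and 4756, and 3914 and 3953 were called there. With block and length trend removed together, the first 4 had 7 and 59, 64 and 3, 3 and 20, and 2 and 74. Of all genes, 5905 and 4908 of 13966 were called in the first. In the other comparisons 3652 and 4725, 3236 and 4001, and 4595 and 3951 of 14837 were called.

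With the length trend removed, the first 4 comparisons had 5 and 45, 46 and 1, 0 and 6, and 0 and 57. Against 2iLif, PD032 had 14 and 22, Aurka inh 46 and 2, and PD032+ Aurka inh 36 and 3. For these fits the shares of all genes stand in the Results. With length and GC trends removed the first 4 had 5 and 44, 45 and 1, 0 and 8, and 0 and 60. Of 15223 genes, 5786 and 4620, 2996 and 4194, 2738 and 3276, and 4095 and 3345 were called. Against 2iLif the members' counts in that fit were 18 and 17, 56 and 2, and 50 and 4. For all genes they were 5562 and 4347, 5266 and 4152, and 4113 and 3562. There Rpl10a in PD032 against 2iLif changed sign, to 0.0134 on the log2 scale. Without library 2 of the inhibitor groups, PD032+ Aurka inh had 67 and 1 against PD032 and 2 and 8 against Aurka inh. PD032 against Aurka inh had 2 and 77. Against 2iLif, PD032 had 3 and 65, Aurka inh 24 and 7, and PD032+ Aurka inh 11 and 16. Of 15263 genes, 5335 and 5347, 4893 and 5042, and 4284 and 4331 were called against 2iLif.

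Leaving out each library in turn gave, in the order above, 27 to 42 lower, 14 to 62 higher, 0 to 1 higher with 0 to 8 lower, and 28 to 78 lower, and against 2iLif 1 to 4 higher with 13 to 49 lower, 6 to 42 with 0 to 3, and 4 to 7 with 1 to 3. In FGF2/Activin against 2iLif, 4635 of 15547 genes were lower in the fit with 27 members and 4944 of 15583 in that with 42. Against 2iLif, 4382 of 15598 and 4531 of 15312 genes were higher in PD032 in fits with 1 and 4 members. In Aurka inh 4032 of 15583 and 4545 of 15580 were lower in fits with 0 and 3 members. In PD032+ Aurka inh 3207 of 15587 and 3504 of 15333 were lower in fits with 1 and 3 members. In a fit with 7 higher members, 3125 of 15331 were higher. Against Aurka inh, 2874 of 15580 were higher in the fit of PD032+ Aurka inh with 1 member. The share of counts in FGF2/Activin was 4.53% of protein-coding counts, 4.58% without mitochondrial genes and 4.59% with pseudogenes. For single named genes, 1452 of 1620 values kept direction and side of the threshold, 167 lost it and 1 changed sign.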

Other observations

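Of 287 ribosomal protein pseudogenes in the table, 54 were tested. Between groups of one naming style few passed: 3 were lower in FGF2/Activin against 2iLif, 3 higher in PD032+ Aurka inh against PD032, 2 lower in PD032+ Aurka inh against Aurka inh and 9 lower in PD032 against Aurka inh. In the opposite direction 0 passed in each. Of the 15223 genes tested, 4962 lower, 3042 higher, 2474 lower and 2999 lower were called in these comparisons. Across naming styles, 26, 22 and 23 of the 54 were lower than in 2iLif in PD032, Aurka inh and PD032+ Aurka inh, and 0, 5 and 1 higher. Of the 15223 genes, 4709, 4490 and 3627 were lower and 4881, 4397 and 3616 higher. The pseudogenes had median log2 fold changes of -0.69, -0.34 and -0.63, where the 86 members had medians of -0.13, 0.13 and 0.06. A batch and the group cannot be told apart there.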
